A study of Mus musculus with 6 samples.

Results

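The genes described here carry glucose into the cell, convert it to pyruvate and lactate, and set how much pyruvate enters the mitochondrion. They were the 34 genes of a fixed list of glycolytic enzymes and their isoforms, glucose transporters, the enzymes that make and break fructose 2,6-bisphosphate, lactate dehydrogenases and lactate transporters, and pyruvate dehydrogenase with its kinases. A gene was taken where a transcript cluster, the unit an array of this type reports, was annotated with its symbol alone, and of several such clusters the brightest by its mean in the 6 hearts was taken. By this rule 30 of the 34 were measured, among 19933 genes in all. Gpi1, Gapdh, Eno1 and Pfkfb1 are not analysed here. For Gapdh, each of the 25 clusters that carry its symbol carries others too.

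The samples were hearts of mouse embryos at E12.5, a mid-gestation stage. The 3 KO hearts are labelled as knockout for β1 integrin (Itgb1), the shared β chain of many matrix receptors, and the 3 WT hearts as wild type. Neither the strain nor the cells that lost the gene are in the labels, which also leave it unsaid if hearts were pooled, and a heart stands below for 1 sample. Total RNA was read on 1 Affymetrix Mouse Gene ST array per heart, and the deposited values are log2 signals.

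In glycolysis a hexokinase traps glucose that facilitative carriers have let in, phosphofructokinase commits it to breakdown, and the lower steps yield ATP and pyruvate, which lactate dehydrogenase can reduce to lactate for export. Most steps are served by several genes, whose isoforms differ in tissue and in regulation. The embryonic heart relies heavily on glycolysis and moves towards oxidation of fatty acids around and after birth. Many of these genes are known targets of the hypoxia-inducible factors, which bind DNA at a core written ACGTG or GCGTG.

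Because many of these genes are described as hypoxia targets, promoter windows of some members are shown first. Each is the 300-base window around an annotated transcript start, from RefSeq on GRCm38.p6, printed 5′ to 3′ on the gene's strand, with every ACGTG or GCGTG on either strand in capitals. Hk2, Pfkfb3 and Slc2a1 had higher mean signal in the KO hearts, Ldha and Ldhb are partners in 1 enzyme that differed in opposite directions, and Eno2 had the largest difference of all members. Pfkfb3 and Ldha each have 2 windows, and the one with more matches is shown.

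Hk2 (chr6:82774405-82774704, minus strand): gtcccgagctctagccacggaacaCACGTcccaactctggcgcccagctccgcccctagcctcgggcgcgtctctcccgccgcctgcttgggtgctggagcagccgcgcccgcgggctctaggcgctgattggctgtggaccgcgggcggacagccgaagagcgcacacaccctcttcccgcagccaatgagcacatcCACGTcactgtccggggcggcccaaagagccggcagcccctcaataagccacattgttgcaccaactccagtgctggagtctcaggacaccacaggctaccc

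Pfkfb3 (chr2:11502041-11502340, minus strand): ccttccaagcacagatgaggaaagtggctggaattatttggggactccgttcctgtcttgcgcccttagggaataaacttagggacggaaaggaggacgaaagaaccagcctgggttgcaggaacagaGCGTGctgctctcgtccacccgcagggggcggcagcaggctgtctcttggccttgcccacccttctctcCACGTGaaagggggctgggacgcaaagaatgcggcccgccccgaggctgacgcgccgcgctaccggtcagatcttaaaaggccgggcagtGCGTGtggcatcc

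Slc2a1 (chr4:119108495-119108794, plus strand): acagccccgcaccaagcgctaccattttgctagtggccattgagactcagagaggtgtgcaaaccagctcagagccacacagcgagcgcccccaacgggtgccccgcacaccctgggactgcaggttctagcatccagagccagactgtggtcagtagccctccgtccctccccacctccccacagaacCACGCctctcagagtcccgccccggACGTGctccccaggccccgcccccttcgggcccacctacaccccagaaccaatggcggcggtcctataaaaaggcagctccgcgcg

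Ldha (chr7:46845554-46845853, plus strand): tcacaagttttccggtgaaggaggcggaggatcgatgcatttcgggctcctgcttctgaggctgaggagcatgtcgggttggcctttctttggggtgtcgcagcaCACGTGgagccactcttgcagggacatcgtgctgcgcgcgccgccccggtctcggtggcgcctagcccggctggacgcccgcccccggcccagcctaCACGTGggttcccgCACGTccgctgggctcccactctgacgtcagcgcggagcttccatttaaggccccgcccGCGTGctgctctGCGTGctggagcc

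Ldhb (chr6:142507908-142508207, minus strand): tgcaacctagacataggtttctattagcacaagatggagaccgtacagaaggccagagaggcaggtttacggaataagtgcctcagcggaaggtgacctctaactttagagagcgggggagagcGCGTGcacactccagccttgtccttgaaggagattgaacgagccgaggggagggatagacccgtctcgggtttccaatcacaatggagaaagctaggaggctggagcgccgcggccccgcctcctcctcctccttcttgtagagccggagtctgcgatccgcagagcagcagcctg

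Eno2 (chr6:124769624-124769923, minus strand): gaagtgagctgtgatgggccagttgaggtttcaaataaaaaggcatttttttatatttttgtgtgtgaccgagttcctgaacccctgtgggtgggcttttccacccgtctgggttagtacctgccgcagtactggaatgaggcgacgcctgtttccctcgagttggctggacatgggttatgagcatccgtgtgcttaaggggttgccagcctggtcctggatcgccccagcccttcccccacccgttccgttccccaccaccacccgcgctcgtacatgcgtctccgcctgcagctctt

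The Hk2 window held 2 matches to ACGTG, the Pfkfb3 window shown 2 to ACGTG and 2 to GCGTG, and the Slc2a1 window 1 of each. The Ldha window shown held 5 and 2, while the Ldhb window held 1 match, to GCGTG, and the Eno2 window held neither. The second window of Pfkfb3 held 1 match to ACGTG and 0 to GCGTG, and that of Ldha 0 and 2. A CACGTG, of which Ldha has 2 and Pfkfb3 has 1, counts as 2 matches to ACGTG, since it reads the same on both strands. Windows were found for 28 of the 30 measured members, and those of Slc2a3 and Slc2a4 are not shown. At least 1 of the motifs stood in 33 of their 42 windows (78.6%), against 43.8% of all 32817 windows. The windows of the members were richer in G and C, with a median of 61.0% against 52.7%, and both motifs hold the dinucleotide CG. Members with higher mean signal in KO hearts included Pfkp, with 4 matches to GCGTG, and Eno2, with neither motif. Those with lower mean signal likewise included rich and empty windows. Slc16a1 had 3 matches to ACGTG and 2 to GCGTG, Pdha1 had 4 to GCGTG, and Pgam2 had neither motif. A match is a string of letters in this window, and no binding was measured.

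No member passed the test of KO against WT hearts. The test was limma's, with Benjamini-Hochberg adjustment over all 28767 clusters and a threshold of 0.05. It called 0 of 30 members, and the smallest adjusted p among them was 0.797, against 0 called clusters in all (0.0%) and a smallest adjusted p of 0.601. At an unadjusted p under 0.05, 2 members were higher in KO hearts, Eno2 and Slc2a3, where 3.06% of all clusters were. In the other direction 0 members reached it, where 2.87% of all clusters did. By their means 22 members were higher, where 46.6% of all clusters were, and 8 lower, where 53.4% were, and the median difference was 0.09 (log2) against -0.01 over all clusters. The 3 KO hearts lay wholly above the 3 WT hearts for 10 of 30 members, against 6.01% of all clusters, and wholly below them for 0, against 6.61%. All differences below are therefore measured values that did not pass, on the log2 scale with limma's standard error (SE).

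KO replicate 1 stood apart, and differences are also given without it. It was the highest of the 6 hearts for 21 of 30 members. It exceeded the WT mean by 0.5 or more for 10 of them, against 5.09% of all clusters, and lay under it by as much for 0, against 3.28%. KO replicate 2 did so for 3 members, against 1.44%, and KO replicate 3 for 1, against 1.85%. Without KO replicate 1, limma called 0 of 30 members, against 1 of 28767 clusters (0.00348%), and the median difference of the members was 0.02, with 18 higher (against 47.8%) and 12 lower (against 52.2%). At an unadjusted p under 0.05, 3 members were then higher, against 2.77% of all clusters, and these were Slc2a3, Eno2 and Pfkfb3, while 0 were lower, against 2.85%. KO replicates 2 and 3 still lay above all WT hearts for 10 members, against 9.43% of all clusters. They lay below all WT hearts for 1, Pgam1, against 11.1%.

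**Figure D1:**
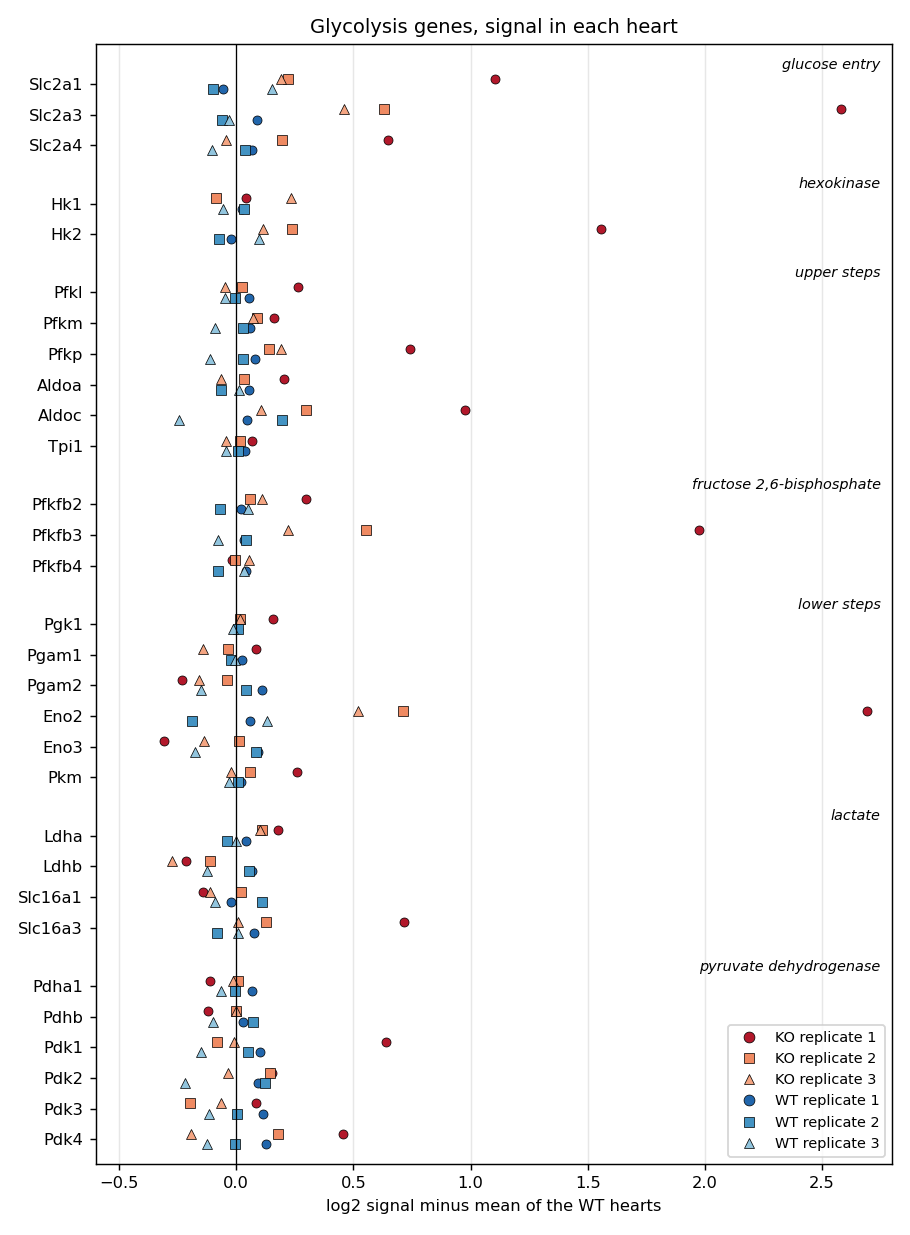
Signal of the 30 measured genes in each heart, as log2 signal minus the mean of the 3 WT hearts, by pathway step; each point is 1 heart, with the KO hearts above the WT hearts on each row. KO replicate 1 lies farthest right for Eno2 (2.69), Slc2a3 (2.57), Pfkfb3 (1.97) and Hk2 (1.56), and KO replicates 2 and 3 lie right of all WT hearts for these 4 genes.

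The 3 glucose carriers were all higher in KO hearts by their means. Slc2a3, which encodes the high-affinity carrier GLUT3 of neurons, placenta and blood cells, had signals of 11.77, 9.82 and 9.65 in KO replicates 1 to 3, against 9.28, 9.13 and 9.16 in WT replicates 1 to 3. Every KO heart was above every WT heart, by a wide margin in KO replicate 1 and by less in the others. The difference was 1.22 ± 0.50 (SE), or 2.33-fold (adjusted p = 0.797), and 0.55 ± 0.10 without KO replicate 1, or 1.46-fold (adjusted p = 0.562). Over the 15 alternatives tried its adjusted p ranged between 0.345 and 0.994. Slc2a1, which encodes GLUT1, the main carrier of the embryonic heart, had 12.949, 12.070 and 12.041 in KO hearts, against 11.794, 11.748 and 11.999 in WT hearts. The groups did not overlap, but KO replicate 3 was only just above WT replicate 3. The difference was 0.51 ± 0.24 with all hearts and 0.21 ± 0.10 without KO replicate 1. Slc2a4, which encodes the insulin-responsive GLUT4 of adult muscle and fat, had 8.83, 8.38 and 8.14 in KO hearts, against 8.25, 8.22 and 8.08 in WT hearts. Here the groups overlapped, and the difference of 0.27 ± 0.17 was 0.08 ± 0.11 without KO replicate 1.

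By their means Hk2 differed more than Hk1 among the hexokinase genes, mostly through KO replicate 1. Hk2, the inducible, muscle and embryonic form that docks on mitochondria, had 11.48, 10.16 and 10.04 in KO hearts, against 9.90, 9.85 and 10.02 in WT hearts. KO replicate 1 was 2.95-fold above the WT mean, while KO replicate 3 was level with WT replicate 3. The difference was 0.64 ± 0.35, and 0.17 ± 0.09 without KO replicate 1. Hk1, the widely expressed form, stood at 12.76, 12.63 and 12.95 in KO hearts, against 12.74, 12.75 and 12.66 in WT hearts, with a difference of 0.07 ± 0.10, the same without KO replicate 1. This cluster lists no RefSeq mRNA. In it KO replicate 3 was the highest heart, as it was in all 16 clusters annotated with Rpl17, a ribosomal protein gene, and Hk1 together. Whether the cluster reads hexokinase alone was not tested. The other Hk1 cluster, which lists RefSeq mRNAs, had 11.08, 10.89 and 10.78 in KO hearts, against 10.95, 10.98 and 10.81 in WT hearts. Its hearts overlapped, with a difference of 0.00 ± 0.11, and -0.08 without KO replicate 1.

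Among the phosphofructokinase subunits, Pfkp, the platelet-type subunit, differed most. It had 11.90, 11.30 and 11.35 in KO hearts, against 11.24, 11.19 and 11.05 in WT hearts, with no overlap. The difference was 0.36 ± 0.16, and 0.16 ± 0.09 without KO replicate 1. Pfkm, the muscle subunit, had 10.95, 10.88 and 10.86 in KO hearts, against 10.85, 10.82 and 10.70 in WT hearts. It too did not overlap, although the gap was small, and the difference was 0.11 ± 0.08, and 0.08 without KO replicate 1. Pfkl, the liver subunit, overlapped and differed by 0.08 ± 0.10, and by -0.01 without KO replicate 1.

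Of the aldolases, Aldoc, the brain-type isoform, had 9.04, 8.36 and 8.17 in KO hearts, against 8.11, 8.26 and 7.82 in WT hearts. KO replicates 1 and 2 were the highest hearts, and KO replicate 3 lay below WT replicate 2. The difference was 0.46 ± 0.23, and 0.20 ± 0.15 without KO replicate 1. Aldoa, the muscle isoform, differed by 0.06 ± 0.10, and Tpi1, the single triose phosphate isomerase gene, by 0.01 ± 0.08. Both signs turned without KO replicate 1, each to -0.01. Tpi1 lies close to Eno2 on chromosome 6, with 2 protein-coding genes, Lrrc23 and Spsb2, between them in the RefSeq order. Those 2 differed by 0.13 ± 0.11 and 0.14 ± 0.11 (0.15 and 0.05 without KO replicate 1), with overlapping hearts.

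The Pfkfb genes encode the bifunctional enzymes that set fructose 2,6-bisphosphate, the strongest activator of phosphofructokinase, and Pfkfb3 encodes the form with the highest kinase over phosphatase activity. Pfkfb3 had 10.11, 8.69 and 8.36 in KO hearts, against 8.17, 8.18 and 8.06 in WT hearts. The KO hearts were all above the WT hearts and differed widely among themselves. The difference was 0.92 ± 0.40, or 1.89-fold, and 0.39 ± 0.12 without KO replicate 1, or 1.31-fold (adjusted p = 0.791). Pfkfb2, the heart-type form, had 8.43, 8.19 and 8.24 in KO hearts, against 8.15, 8.06 and 8.18 in WT hearts. Its groups did not overlap, and the difference was 0.16 ± 0.10, and 0.09 without KO replicate 1. Pfkfb4, with signals near the array median, overlapped and differed by 0.01 ± 0.08, and by 0.03 without that heart.

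**Figure D2:**
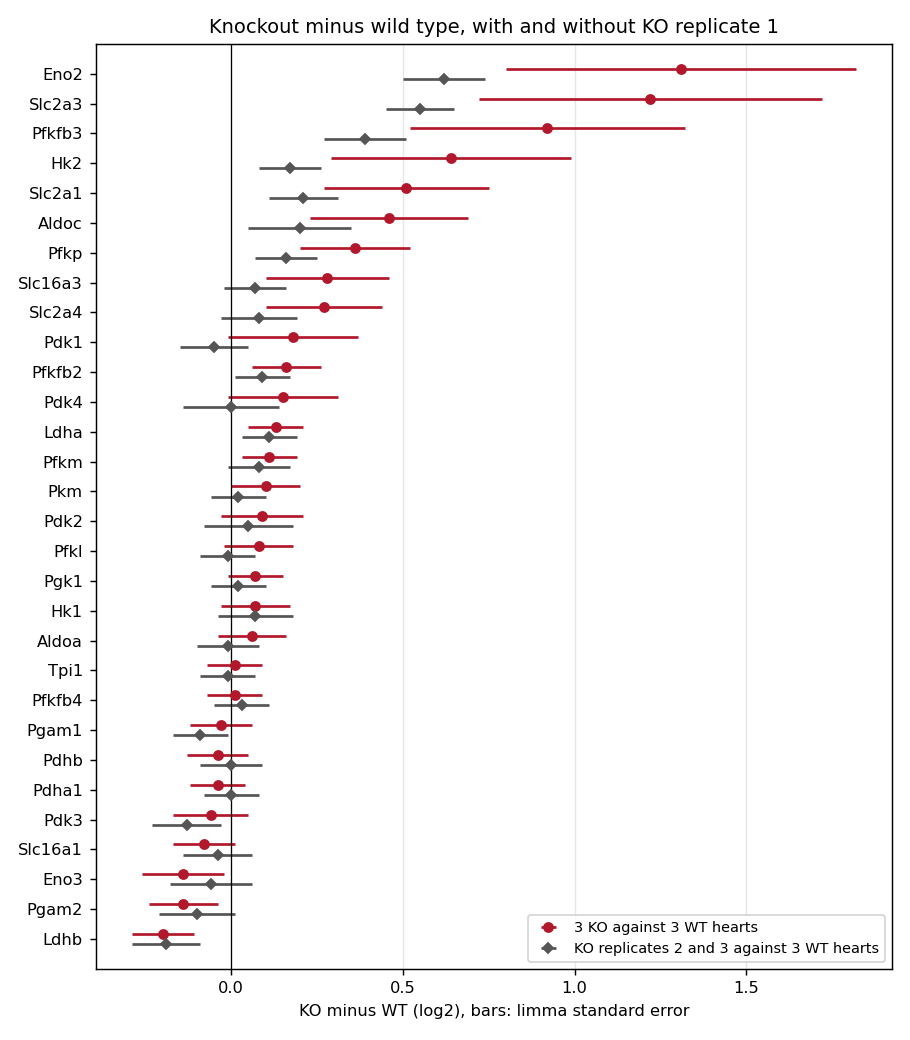
KO minus WT difference (log2) of each of the 30 genes, ordered by size, with all 6 hearts (circles) and without KO replicate 1 (diamonds); bars are limma's standard error. Eno2, Slc2a3 and Pfkfb3 stay farthest from 0 without KO replicate 1, at 0.62, 0.55 and 0.39, and Ldhb is at -0.20 and -0.19.

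Among the enzymes after the triose phosphates, the measured enolases differed in opposite directions by their means. Eno2, known as neuron-specific enolase, had 10.89, 8.91 and 8.72 in KO hearts, against 8.26, 8.01 and 8.33 in WT hearts. All KO hearts were above all WT hearts, with KO replicate 1 at 6.45-fold the WT mean. The difference was 1.31 ± 0.51, or 2.48-fold (adjusted p = 0.797), and 0.62 ± 0.12 without KO replicate 1, or 1.54-fold (adjusted p = 0.682). Its adjusted p ranged between 0.316 and 0.994 over the alternatives. Eno3, the muscle enolase, had 10.97, 11.29 and 11.14 in KO hearts, against 11.37, 11.36 and 11.10 in WT hearts, and differed by -0.14 ± 0.12. The groups overlapped through WT replicate 3, and the difference was -0.06 without KO replicate 1. Pgam2, the muscle phosphoglycerate mutase, differed by -0.14 ± 0.10 and Pgam1, the widely expressed form, by -0.03 ± 0.09, both with overlap. Without KO replicate 1 they stood at -0.10 and -0.09.

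The remaining lower enzymes stood within a narrow band. Pgk1, which encodes the first ATP-yielding enzyme, phosphoglycerate kinase, had 12.81, 12.67 and 12.67 in KO hearts, against 12.66, 12.66 and 12.64 in WT hearts. The hearts did not overlap, but KO replicates 2 and 3 exceeded the WT mean by only 0.02, and the difference was 0.07 ± 0.08, and 0.02 without KO replicate 1. Pkm, the pyruvate kinase gene of muscle and of most embryonic tissue, differed by 0.10 ± 0.10, with overlap, and by 0.02 without KO replicate 1. The array value does not separate its spliced forms. Tpi1, Pgk1, Pgam1, Pkm and Ldha are among the genes with many near-identical processed copies in the mouse genome, and how the array's probes treat those copies is not given, so their values are less certain.

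The lactate dehydrogenase genes differed in opposite directions. Ldha, whose subunit favours the reduction of pyruvate to lactate, had 13.42, 13.35 and 13.34 in KO hearts, against 13.28, 13.20 and 13.24 in WT hearts. Every KO heart was above every WT heart, the difference was 0.13 ± 0.08, and it was 0.11 without KO replicate 1. Ldhb, the heart-type subunit that favours the oxidation of lactate, had 10.55, 10.65 and 10.49 in KO hearts, against 10.83, 10.82 and 10.64 in WT hearts. KO replicate 2 overlapped WT replicate 3 by a small margin. The difference was -0.20 ± 0.09, and -0.19 ± 0.10 without KO replicate 1. A dimmer Ldhb cluster, which like the brighter one lists a RefSeq mRNA, gave -0.08 ± 0.12, with overlap, and -0.12 without KO replicate 1. Among members with 1 cluster, the cluster numbers ran in blocks by chromosome. By its number the dimmer Ldhb cluster fell next to members of chromosome 6, where Ldhb lies. The brighter one fell between members of chromosomes 15 and 2. The positions of their probes were not tested, so the Ldhb value is less certain. Slc16a3, which encodes MCT4, the lactate exporter of glycolytic cells, had 11.25, 10.66 and 10.54 in KO hearts, against 10.61, 10.45 and 10.54 in WT hearts. Only KO replicate 1 stood clear, the difference was 0.28 ± 0.18, and it was 0.07 ± 0.09 without that heart. Slc16a1, which encodes the widely expressed MCT1, differed by -0.08 ± 0.09, and by -0.04 without it.

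At the entry of pyruvate into the mitochondrion the groups overlapped for all 6 genes. The subunits of the E1 component of pyruvate dehydrogenase, Pdha1 and Pdhb, each differed by -0.04, with standard errors of 0.08 and 0.09, and both stood at 0.00 without KO replicate 1. Of the kinases that inhibit the complex, Pdk1, a hypoxia target, was 10.49, 9.77 and 9.84 in KO hearts, against 9.95, 9.90 and 9.70 in WT hearts. KO replicate 1 alone was high, and the difference of 0.18 ± 0.19 became -0.05 without it. Pdk4, induced by fasting and fatty acids, differed by 0.15 ± 0.16, Pdk2 by 0.09 ± 0.12 and Pdk3 by -0.06 ± 0.11. Without KO replicate 1 Pdk4 stood at 0.00, Pdk2 at 0.05 and Pdk3 at -0.13.

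Whether isoforms of 1 step changed unequally was tested on the log2 ratio of their signals within each heart. Of 13 listed pairs 11 had both isoforms measured, and the 2 pairs with Eno1 did not. The exact two-sided permutation test of 3 hearts against 3 cannot go below p = 0.1, so no pair could pass, and the smallest p adjusted over the 11 pairs was 0.22. The groups did not overlap for 5 pairs, and Pfkp is in more than 1 of these. No share over other gene pairs was computed. Of all single clusters 6.01% lay wholly higher and 6.61% wholly lower in KO hearts. The ratio of Ldhb to Ldha, relative to its WT mean, was -0.39, -0.23 and -0.37 in KO replicates 1 to 3, against 0.03, 0.10 and -0.12 in WT replicates 1 to 3 (exact permutation p = 0.1). Here no KO heart stood apart, and the difference was -0.33, and -0.30 without KO replicate 1. It was larger than the SD of 0.09 in KO hearts and of 0.11 in WT hearts (n = 3 each). This ratio used the brighter Ldhb cluster. The dimmer one, which differed by only -0.08 ± 0.12 with overlap, was not tried alone, so the lack of overlap rests on the brighter cluster. By its number that brighter cluster did not fall with chromosome 6, where Ldhb lies.

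The ratio of Slc2a3 to Slc2a1 was 1.47, 0.41 and 0.27 in KO hearts, against 0.14, 0.04 and -0.18 in WT hearts. All 3 KO hearts were higher, the mean difference was 0.72, and it was 0.34 without KO replicate 1. Pfkp over Pfkm differed by 0.25 and Pfkp over Pfkl by 0.27, and by 0.09 and 0.17 without KO replicate 1, both with no overlap either way. Slc16a3 over Slc16a1 differed by 0.36, and by 0.11 without KO replicate 1, and KO replicates 2 and 3, both at 0.11, were only just above WT replicate 1 at 0.10. Pfkfb3 over Pfkfb2 differed by 0.76, Aldoc over Aldoa by 0.40, Pdk1 over Pdk2 by 0.10, Pgam2 over Pgam1 by -0.11 and Slc2a4 over Slc2a1 by -0.24, all with overlap. Without KO replicate 1 these 5 differences were, in the same order, 0.30, 0.22, -0.10, 0.00 and -0.13. Hk2 over Hk1 differed by 0.57 with overlap, and by 0.63 with no overlap when the Hk1 cluster that lists RefSeq mRNAs was used. Without KO replicate 1 these values were 0.10 and 0.26. Eno2 over Eno3, a pair added after the data were seen, was 2.99, 0.70 and 0.66 in KO hearts, against -0.03, -0.28 and 0.31 in WT hearts. These KO hearts were all higher, and the mean difference of 1.45 was 0.68 without KO replicate 1.

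**Figure D3:**
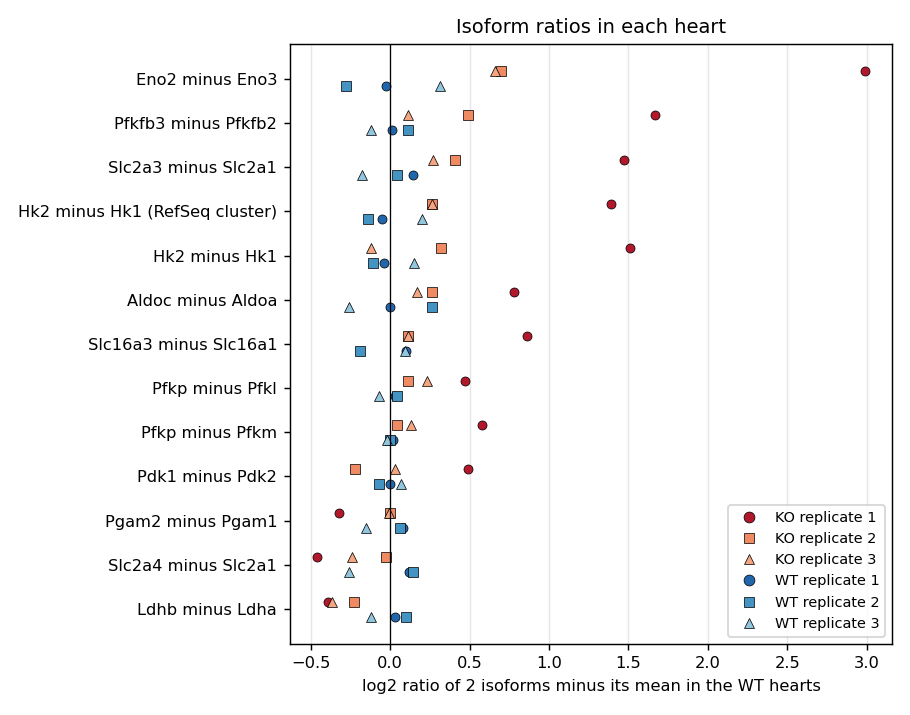
Log2 ratio of 2 isoforms in each heart, minus the mean of the WT hearts; each point is 1 heart, with KO hearts above WT hearts on each row. For Ldhb minus Ldha the 3 KO hearts lie together between -0.39 and -0.23, while for most other pairs KO replicate 1 lies apart from the other hearts.

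Genes of neighbouring glucose pathways were counted the same way. Of 64 genes on 5 lists 58 were measured. In KO hearts 17 had a higher mean, against 46.6% of all clusters, and 41 a lower mean, against 53.4%. Of the 58, limma called 0 (adjusted p at least 0.797). Their median difference was -0.05. At an unadjusted p under 0.05, 2 of the 58 were higher, against 3.06% of all clusters, and 2 lower, against 2.87%, shares near those of all clusters. They were Tkt, the transketolase of the pentose phosphate pathway, at 0.28 ± 0.10, Pklr, the liver and red cell pyruvate kinase, at 0.35 ± 0.15, Tigar, a phosphatase that lowers fructose 2,6-bisphosphate, at -0.30 ± 0.12, and Gpd1l, a glycerol phosphate dehydrogenase relative, at -0.29 ± 0.12. Tkt was 9.48, 9.24 and 9.31 in KO hearts, against 9.14, 8.97 and 9.09 in WT hearts, and 0.21 higher without KO replicate 1. Without that heart Pklr stood at 0.20, and Tigar and Gpd1l both at -0.17. For Tkt, Tigar and Gpd1l the groups did not overlap, while for Pklr they did.

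By list, 1 of 7 measured pentose phosphate genes was higher and 6 lower, with Pgd, which makes ribulose phosphate, at -0.22 ± 0.11, and at -0.13 without KO replicate 1. Of 9 genes of pyruvate import and the pyruvate dehydrogenase complex, 1 was higher and 8 lower, with Pdhx, an anchoring subunit, at -0.15 ± 0.12, and at -0.07 without that heart. Of 12 glycogen genes 5 were higher and 7 lower, and Pgm2, a phosphoglucomutase gene, had no overlap, at 0.15 ± 0.10, and at 0.07 without KO replicate 1. Ppp1r3c, a glycogen-targeting subunit of protein phosphatase, was 10.36, 9.28 and 9.10 in KO hearts, against 9.22, 9.21 and 9.07 in WT hearts. Only KO replicate 1 was high, and the difference of 0.41 ± 0.30 was 0.02 without it. The muscle glycogen phosphorylase gene Pygm differed by -0.17 ± 0.09 and the branching enzyme gene Gbe1 by -0.21 ± 0.11, and by -0.14 and -0.24 without KO replicate 1. Of 9 genes of gluconeogenesis and glycerol phosphate 4 were higher and 5 lower, and of 21 other isozymes and carriers 6 were higher and 15 lower.

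Other lists moved with the glycolysis genes in KO replicate 1. The 30 members had, on average, 0.50, 0.11 and 0.04 above the WT mean in KO replicates 1 to 3, against 0.05, 0.00 and -0.06 in WT replicates 1 to 3. For 14 measured hypoxia-induced genes outside glycolysis these means were 1.65, 0.34 and 0.22 in KO hearts, against -0.01, -0.03 and 0.04 in WT hearts. All 14 were higher in KO hearts, where 46.6% of all clusters were, 8 of them with no overlap, where 6.01% of all clusters had none, and limma called 0 (adjusted p at least 0.797). Without KO replicate 1 a higher mean was left for all 14, against 47.8% of all clusters, and 8 had no overlap, against 9.43%. Their median difference was then 0.28, and limma called 0. Egln3, an oxygen-sensing prolyl hydroxylase induced by hypoxia, was 9.86, 8.22 and 7.88 in KO hearts, against 7.48, 7.13 and 7.40 in WT hearts. The groups did not overlap, and the difference of 1.32 ± 0.46 was 0.71 without KO replicate 1.

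Blood cell markers were also high in KO replicate 1. All 7 measured megakaryocyte and platelet markers had a higher mean in KO hearts, 2 with no overlap (against 6.01% of all clusters), and without KO replicate 1 a higher mean was left for 6. Their summed signal (log2 of the sum) was 9.47 to 11.64 in KO hearts, against 9.37 to 9.51 in WT hearts. Their mean stood 1.91, 0.23 and 0.01 above the WT mean in KO replicates 1 to 3. Of the erythroid markers all 10 measured were higher, 1 with no overlap (against 6.01%), and without KO replicate 1 they were 4 higher and 6 lower. Their summed signal was 14.17 to 15.11 in KO hearts, against 13.97 to 14.53 in WT hearts. Their mean stood at 1.25, -0.14 and -0.02 in KO hearts, against 0.15, 0.12 and -0.28 in WT hearts. For the platelet markers the WT hearts stood at -0.08, 0.02 and 0.06. Of 10 macrophage and leukocyte markers 9 were higher in KO hearts, where 46.6% of all clusters were, and 4 had no overlap, against 6.01%. Their mean stood at 0.08, 0.27 and 0.22 in KO hearts, against 0.08, 0.04 and -0.11 in WT hearts. By this mean KO replicates 2 and 3 were the highest hearts. Without KO replicate 1 the markers with no overlap were 6 higher, against 9.43% of all clusters, and 1 lower, against 11.1%. Their summed signal was 10.53 to 10.69 in KO hearts, against 10.38 to 10.71 in WT hearts. Mpeg1, a pore-forming protein gene of macrophages, was 6.27, 6.63 and 6.51 in KO hearts, against 5.64, 5.69 and 5.90 in WT hearts, and differed by 0.73 ± 0.12. For Cybb, a gene of the oxidase that phagocytes use, every KO heart was likewise above every WT heart, and the difference was 0.65 ± 0.11. Each had a lower unadjusted p than any member, and without KO replicate 1 the differences were 0.83 and 0.68. The 1 marker of this list with a lower mean was Lyz2, at -0.40 ± 0.17 with overlap. Without KO replicate 1 it stood at -0.45, with no overlap. The part of these blood cell markers in the glycolysis values, in any KO heart, was not tested. In these whole hearts, more cells of a type and more RNA per cell cannot be told apart.

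**Figure D4:**
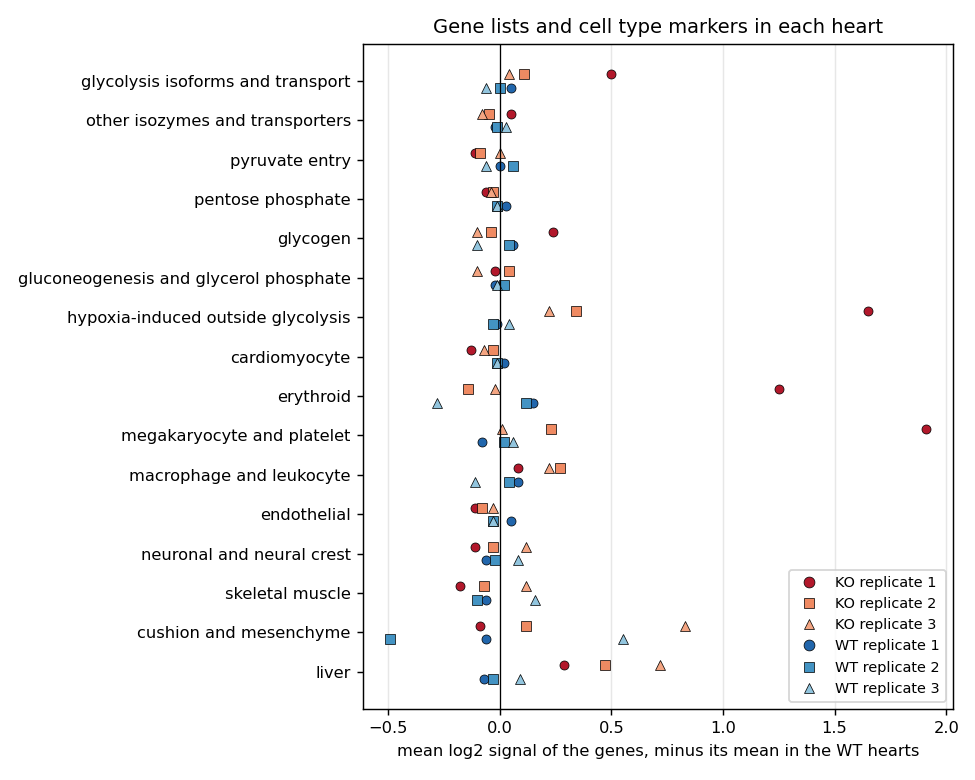
Mean log2 signal of each gene list in each heart, minus its mean in the WT hearts; each point is 1 heart, with KO hearts above WT hearts on each row. KO replicate 1 lies at 0.50 for the glycolysis genes, 1.65 for hypoxia-induced genes, 1.91 for megakaryocyte and platelet markers and 1.25 for erythroid markers.

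Neuronal markers were counted because Eno2 is a neuronal isoform. Of 8 measured neuronal and neural crest markers 6 were higher and 2 lower, and their mean stood at -0.11, -0.03 and 0.12 in KO hearts, against -0.06, -0.02 and 0.08 in WT hearts. Their summed signal was 9.83 to 10.18 in KO hearts, against 10.00 to 10.09 in WT hearts, and Dbh, the noradrenaline-synthesising enzyme gene, was lower in every KO heart, at -0.47 ± 0.11, and at -0.45 without KO replicate 1. Their part in the Eno2 values was not tested. Of 8 skeletal muscle markers 3 were higher and 5 lower. Myod1, a muscle determination factor with the lowest p of these, stood at 0.18 ± 0.12 with overlap, and Myf5, another such factor, at -0.13 ± 0.09 with none. Without KO replicate 1 they stood at 0.21 and -0.08. The 10 cardiomyocyte markers bore out the labelled tissue, each with a signal of at least 10.24 in every heart. In KO hearts 8 of them had a lower mean, where 53.4% of all clusters did. The KO hearts lay wholly lower for 2, against 6.61%. These were Myl3 at -0.21 ± 0.08 and Nkx2-5 at -0.17 ± 0.08, and without KO replicate 1 they stood at -0.18 and -0.16. The summed signal of all 10 markers was 15.94 to 16.05 in KO hearts, against 16.05 to 16.09 in WT hearts. The part of this shift in the lower Ldhb, Eno3 and Pgam2 values was not tested. Liver markers had 5 of 7 genes higher, against 46.6% of all clusters, and 3 with no overlap, against 6.01%. At limma's unadjusted p under 0.05, 3 were higher, against 3.06%, and limma called 0 after adjustment. They were Alb, Afp and Ahsg, at 1.57 ± 0.34, 1.20 ± 0.30 and 0.48 ± 0.10. Without KO replicate 1 these stood at 1.84, 1.46 and 0.52. Their signals in WT hearts lay below the array medians. The means of the list were 0.29, 0.47 and 0.72 above the WT mean in KO replicates 1 to 3, lowest in KO replicate 1. Of the other markers, 2 of 8 endothelial and 8 of 8 cushion and mesenchyme genes had a higher mean in KO hearts, where 46.6% of all clusters did. For all 8 cushion and mesenchyme genes the hearts overlapped. Their mean stood at -0.09, 0.12 and 0.83 in KO hearts, against -0.06, -0.49 and 0.55 in WT hearts. Of both lists limma called 0 genes.

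The targeted gene Itgb1 had a signal of 11.53, 11.42 and 11.65 in KO hearts, against 11.76, 11.80 and 11.78 in WT hearts. The KO hearts were lower with no overlap, and the difference was -0.25 ± 0.09, which left 84.0% of the WT signal, and was -0.25 without KO replicate 1 too. Probes outside the deleted part would not check the labels, and their positions are not given. The median signals of the 6 arrays lay between 6.65 and 6.71, and the number of arrays limits the precision.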

How the data were processed

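RNA from 3 KO and 3 WT hearts was measured on 1 array each. The deposited log2 values come from RMA (robust multi-array average), run by the authors per the submitters' processing notes. Its version and settings are not given here, and the log2 scale was read from the range of the values. RMA compresses differences of dim clusters.

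Of 28767 clusters, 21776 had 1 gene symbol in the platform annotation, 1618 several and 5373 none. Old symbols were updated through Entrez identifiers with a RefSeq table of GRCm38.p6. KO was compared with WT on the deposited values with limma 3.58.1 in R 4.3.3 (lmFit, eBayes, no covariate, no filter), two-sided, adjusted by Benjamini-Hochberg over all clusters. The fit was tested on simulated data. Replicates are called biological in the design text, but their origin is not described further. How much of the spread behind the p-values lies between embryos therefore cannot be told.

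The members, lists and tests were chosen with earlier results of these data known. Every measured member was named. Values per heart were given for Slc2a3, Hk2, Eno2, the 12 members with the lowest p and those without overlap, and for some further genes chosen after their values were seen. From each other list up to 4 genes were named, out of the 4 with the lowest p. Same-numbered KO and WT hearts showed correlations of deviations between -0.06 and -0.03, so the numbers were not taken as pairs.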

Additional observations from a re-analysis of the deposited data

How the results depend on the processing

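Over the 15 alternatives per gene, 0 of 30 members passed limma's test, and 21 members kept their sign. The other 9 took the opposite sign by at least 0.01 (log2). Leaving out each heart in turn gave differences of -0.02 to 0.14 for Hk1, -0.01 to 0.14 for Pfkl, -0.01 to 0.12 for Aldoa, -0.01 to 0.04 for Tpi1, -0.02 to 0.03 for Pfkfb4, -0.09 to 0.02 for Pgam1, -0.05 to 0.32 for Pdk1, -0.02 to 0.15 for Pdk2, -0.13 to 0.01 for Pdk3 and -0.10 to 0.26 for the ratio of Pdk1 to Pdk2. With limma's array weights, KO replicates 1 to 3 had weights of 0.35, 2.98 and 0.536, and WT replicates 1 to 3 of 1.3, 1.69 and 0.814. The weighted KO values thus came mostly from KO replicate 2. With these weights Hk1 stood at -0.04 and Pdk1 at -0.03, and Slc2a3 at 0.79, Hk2 at 0.36, Pfkp at 0.18 and Aldoc at 0.28. With quantile normalization again Tpi1 stood at -0.01. The cause was not tested.

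Leaving out 1 heart at a time gave 0 to 1 called clusters, the 1 without KO replicate 1, and 0 to 10 members at an unadjusted p under 0.05 in place of 2, with 10 without KO replicate 3, 5 without KO replicate 2, 1 without WT replicate 3 and 0 without WT replicate 1 or 2. That count was 4 with a trended robust variance and 5 with a replicate block, which changed no call after adjustment. The signal over background of single probes is not known here, so no limit for dim clusters such as Pfkfb4 can be given. Pairs with Eno1 were not run.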
